A study of Mus musculus with 12 samples.

Results

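Short CDR3α clonotypes are T cell receptor α-chains whose CDR3, the loop between the conserved cysteine of the V segment and the phenylalanine or tryptophan of the J segment, had 10 or fewer amino acids with both ends counted and was read in frame without a stop codon. Reads with the same V segment, J segment and CDR3 amino acids counted as 1 clonotype. The 12 libraries held 739 short clonotypes, 3.58% of 20615 in-frame clonotypes, of 22578 in all. They carried 4485 UMIs, 2.35% of 190549 in-frame UMIs, a UMI being the molecular tag that marks 1 cDNA molecule. The 739 clonotypes had 625 CDR3 amino acid sequences and 846 CDR3 nucleotide sequences.

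Treg that had developed in the thymus shortly before, gated as CD4+CD8-Thy1.1+GFP+, were sorted from individual mice aged 3 weeks, with 100000 cells from each. All mice were on the B6 background and carried the Rag2-Gfp reporter, whose GFP marks cells that made their receptor a short time before, the Foxp3-Thy1a reporter, which puts Thy1.1 on Treg, the transgenic Kaa TCRβ chain and 1 null allele of Tcra. There were 4 mice of each genotype: wt, Il2°, which lack IL-2, and Il15°, which lack IL-15. Since the β-chain was fixed, the repertoires describe α-chains that paired with 1 transgenic β-chain, and the 2 mutants were compared with the same 4 wt mice. The libraries held 7625 to 25980 UMIs in all and 7293 to 24811 in frame, and 59 to 183 short clonotypes. Cell numbers and RNA content per cell cannot be told apart in these libraries, since a cell can give several UMIs.

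The TCRα chain is made in thymocytes by joining a TRAV to a TRAJ segment. Nucleases trim both ends and an enzyme, terminal deoxynucleotidyl transferase, can add bases without a template, so the length of CDR3 depends on the germline ends, on the trimming and on the added bases. CDR3α is the most variable loop of the α-chain and lies over the peptide in the groove of the MHC molecule. Treg precursors in the thymus are known to need a signal from their TCR and cytokines such as IL-2 and IL-15.

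The sequences that carried the most UMIs show how a short loop was built. They are printed 5′ to 3′ in lower case, with the bases that match the germline end of the J segment in capitals. The germline ends, from the codon of the cysteine on or up to the codon of the phenylalanine, come from GENCODE M21 on GRCm38, where TRAV4D-4 lies at chr14:52990866-52991389 and TRAJ43 at chr14:54174742-54174798, both on the + strand. The first 2 lines give these ends, and the next 3 the nucleotide sequences with 5% or more of the UMIs of the leading short clonotype, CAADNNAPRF.
TRAV4D-4, germline: tgtgctgctgagg
TRAJ43, germline: GCAATAACAACAATGCCCCACGATTT
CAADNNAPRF, most UMIs: tgtgctgctgACAACAATGCCCCACGATTT
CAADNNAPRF, next: tgtgctgccgACAACAATGCCCCACGATTT
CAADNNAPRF, last: tgtgctgctgatAACAATGCCCCACGATTT
The sequence with most UMIs held 194 of the 247 UMIs of the clonotype (78.5%) and was read in all 12 libraries. It could be written as 10 germline bases of TRAV4D-4 followed by 20 of TRAJ43, with no base left over. The next held 25 UMIs and had 2 bases that matched neither segment, and the last held 14 UMIs and had 1 such base.

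The leading sequences of the next 4 clonotypes and of the leading clonotype of 7 residues follow, the last chosen after the values were seen.
TRAV4D-3 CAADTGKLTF TRAJ27: tgtgctgctgATACAGGCAAATTAACCTTT
TRAV12D-2 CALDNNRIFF TRAJ31: tgtgctttggaCAATAACAGAATCTTCTTT
TRAV7-2 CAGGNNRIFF TRAJ31: tgtgcaggggGCAATAACAGAATCTTCTTT
TRAV4N-3 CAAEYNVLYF TRAJ21: tgtgctgctgaaTACAACGTGCTTTACTTC
TRAV7-3 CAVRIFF TRAJ31: tgtgcagtccGAATCTTCTTT
In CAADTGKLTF 10 V bases met 20 J bases without any base between them, in 50 of 118 UMIs. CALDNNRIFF was written by nearly 1 nucleotide sequence, with 94 of 95 UMIs. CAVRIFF kept 11 bases of TRAJ31, where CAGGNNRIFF kept 20.

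Before any value on sharing, the libraries were compared for CDR3 nucleotide sequences, each counted with its V and J segment, found in exactly 2 of them, since results on sharing between mice rest on them. Of the 66 library pairs, 10 held between 115 and 1191 such sequences with more than 10 residues, against 0 to 90 in the other 56. These 10 pairs are called linked here. They were, within wt, replicates 1 and 2 and replicates 3 and 4. Within Il2° they were replicates 2 and 3 and replicates 3 and 4, and within Il15° replicates 1 and 4, 2 and 3, and 3 and 4. The other 3 joined genotypes: wt 2 with Il2° 1, wt 3 with Il2° 1, and wt 4 with Il2° 4. Where a linked pair shared such a sequence, 1 of the libraries held it with 1 UMI in 86.1% of cases, against 55.4% in the other pairs. The deposited tables carry running numbers from 1 to 12, and 8 of the linked pairs have neighbouring numbers.

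Short sequences followed the same pairs. Counted with their V and J segments there were 920 short nucleotide sequences, and of the 255 found in exactly 2 libraries, 208 (81.6%) were in a linked pair, with 40 in wt 1 and wt 2 alone, while the 56 other pairs held 0 to 6 each. The origin of the shared sequences was not tested. Detection in other mice is therefore given with all libraries and with unlinked libraries. The numbers of clonotypes by number of mice and the numbers of public clonotypes are also given after leaving out low copies. So are the share of short UMIs and the comparisons of TRAV families of short loops between genotypes. Low copies are each nucleotide sequence of which a linked library held more UMIs. The overlaps of the public lists, the UMIs they held and the other shares of UMIs by genotype are given with all libraries alone. Leaving out low copies removed 1.32% to 32.9% of the short UMIs of a library, and it also removes low but true copies.

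**Figure D1:**
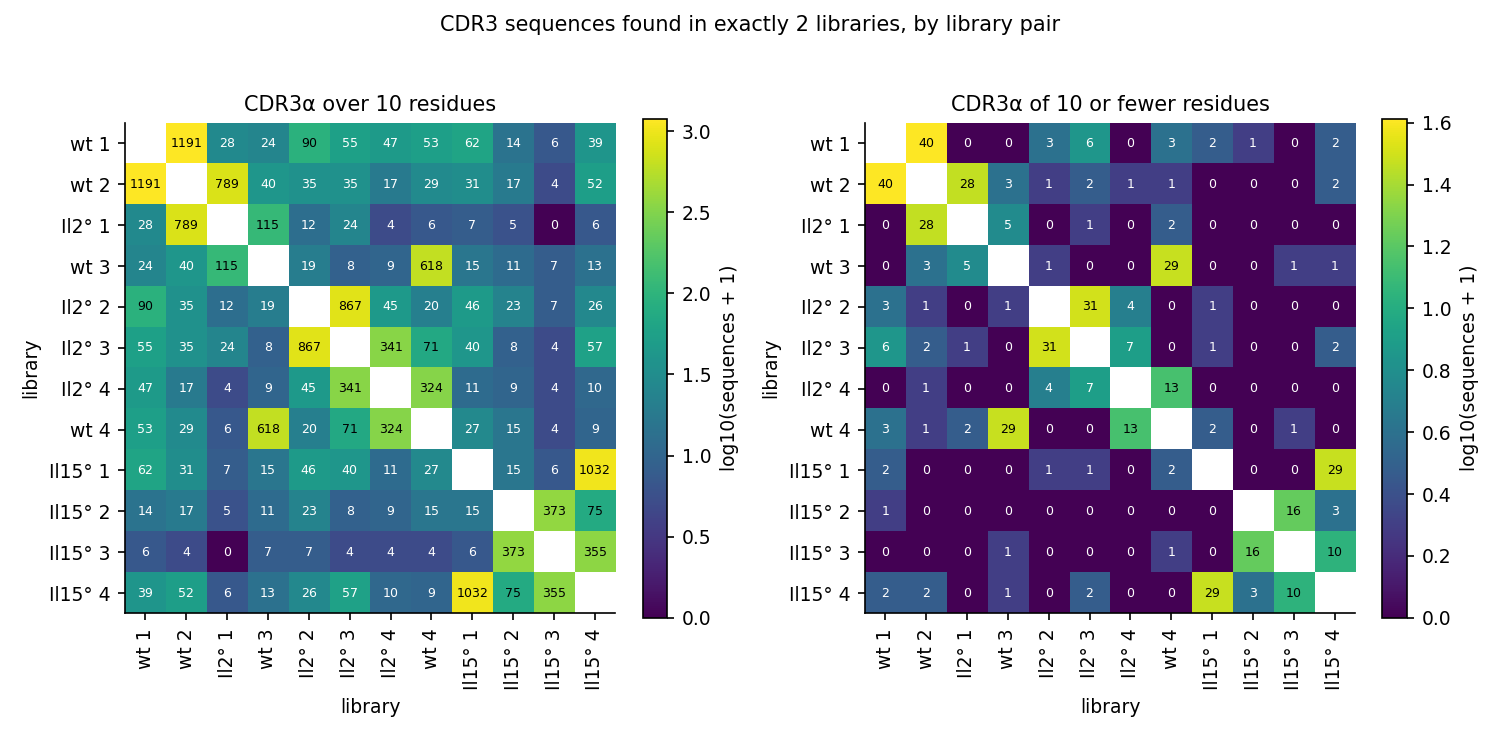
Number of CDR3 nucleotide sequences, each with its V and J segment, found in exactly 2 of the 12 libraries, for each pair of libraries in the order of their running numbers, left for CDR3α over 10 residues and right for 10 or fewer; colour gives log10(number + 1). The pair of wt 1 and wt 2 shared 1191 longer and 40 short sequences, and Il2° 1 shared 789 and 28 with wt 2.

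Short loops were mostly of 10 residues: 570 clonotypes with 3814 UMIs had that length. There were 82 clonotypes with 342 UMIs at 9 residues, 46 with 172 UMIs at 8 and 38 with 145 UMIs at 7. None was read at 6 residues. A single clonotype had 5 residues, CAGIW of TRAV13D-1 and TRAJ33, with 4 UMIs in wt 2. At 4 residues there were CAVG of TRAV4D-3 and TRAJ26, which lacks the phenylalanine or tryptophan at the end and had 5 UMIs in wt 2, and CALF of TRAV13-2 and TRAJ6, with 3 UMIs in Il15° 4. At the edge of the rule, loops of 10 residues held 2.11% ± 0.06, 1.79% ± 0.15 and 2.05% ± 0.39 of in-frame UMIs in wt, Il2° and Il15° (SD, 4 mice each), and loops of 11 residues 8.66% ± 0.31, 8.55% ± 0.63 and 8.24% ± 0.70. Loops of 9 or fewer residues held 0.313% in wt, 0.348% in Il2° and 0.421% in Il15°, so that the Il2° mean was not below wt there.

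Short clonotypes held 2.58, 2.28, 2.39 and 2.43% of the in-frame UMIs in the wt libraries 1 to 4. The Il2° libraries held 2.07, 1.98, 2.25 and 2.25%, and the Il15° libraries 2.53, 2.89, 2.21 and 2.24%. All 4 Il2° values lay below all 4 wt values, and the Il15° values overlapped both. The 95% Wilson interval was 1.78 to 2.20% for the lowest library, Il2° 2, and 2.62 to 3.19% for the highest, Il15° 2, and covers counting error only.

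The wt mean was 2.42% ± 0.13, that of Il2° 2.14% ± 0.13 and that of Il15° 2.47% ± 0.32. Il2° differed from wt by -0.285 percentage points (exact two-sided Mann-Whitney test, p = 0.0286, the smallest p that 4 against 4 mice allow; 0.0857 after Benjamini-Hochberg adjustment over 3 comparisons), which did not pass the threshold of 0.05. Il15° differed from wt by 0.0472 percentage points (exact p = 0.886) and from Il2° by 0.332 (exact p = 0.343). With low copies left out the means were 2.63, 2.44 and 2.66%, Il2° and wt overlapped, and the exact p of Il2° against wt was 0.343. Counted as clonotypes, short loops made up 3.13% ± 0.23, 3.07% ± 0.29 and 3.05% ± 0.22 of the in-frame clonotypes in wt, Il2° and Il15°, and the exact p of the 3 comparisons lay between 0.486 and 0.686.

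**Figure D2:**
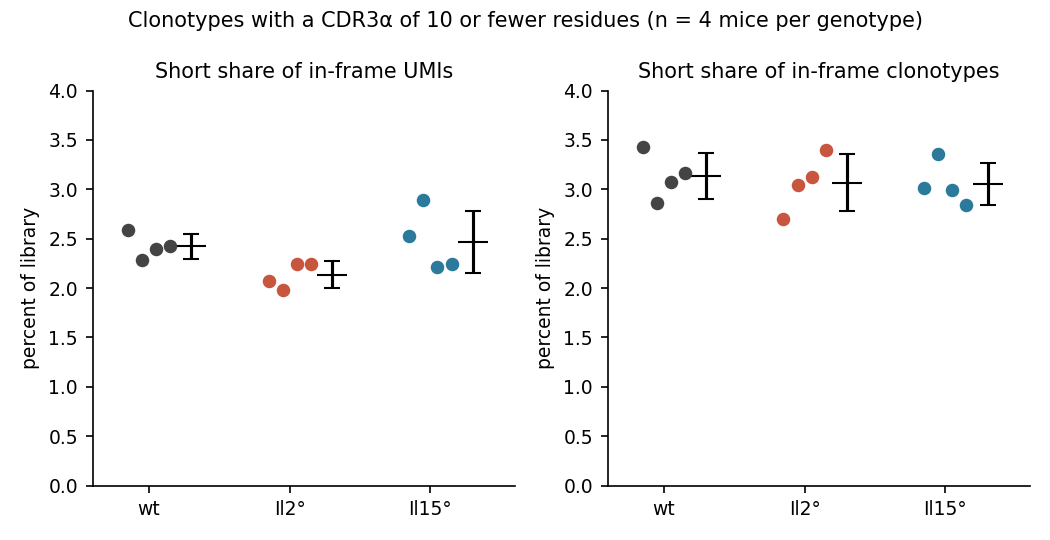
Share of short CDR3α clonotypes in percent of in-frame UMIs (left) and of in-frame clonotypes (right) in each library; points are mice, and bars with whiskers are the mean and SD of 4 mice. The 4 Il2° mice sit between 1.98 and 2.25% of UMIs, below the 4 wt mice at 2.28 to 2.58%, and the genotypes overlap when clonotypes are counted.

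The V family used most by short clonotypes was TRAV4, with 432 of the 739 clonotypes and 3057 UMIs. It made up 67.7% ± 6.0 of the short UMIs of a library (59.0 to 80.5%, n = 12) and 31.0% ± 4.0 of the UMIs of longer in-frame clonotypes, higher among short ones in 12 of 12 libraries (exact two-sided sign-flip permutation test over the libraries, p = 0.000488, the smallest it can give). Within the family TRAV4D-3 held 1730 UMIs, TRAV4N-3 held 745 and TRAV4D-4 held 546. Their germline ends have the same bases, tgtgctgctgagg, and how well reads were assigned among them was not tested.

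The other named families were rarer among short loops. TRAV7 made up 12.8% ± 4.8 of short UMIs against 20.3% ± 2.2 of longer ones and was lower in 11 of 12 libraries (exact p = 0.00342). TRAV6 made up 4.99% ± 3.23 against 9.85% ± 0.90 (exact p = 0.00146). TRAV12 made up 3.77% ± 2.15 against 9.96% ± 1.62 and was lower in 12 of 12 libraries (exact p = 0.000488). Of the 11 families at 1% or more of in-frame UMIs, 81.8% differed between short and longer loops after adjustment, so that a difference in usage was common.

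The shortest loops had another leading family. At 7 or fewer residues TRAV7 held 89 of 157 UMIs (56.7%) and TRAV4 held 48 (30.6%), whereas at 10 residues TRAV4 held 69.8% and TRAV7 held 10.6% of 3814 UMIs. All 219 short UMIs of TRAV6 were at 10 residues. At 11 residues TRAV4 was also the leading family, with 56.0% of 16207 UMIs, followed by TRAV7 with 20.7%, and TRAJ26 held 24.7% against 8.94% at 10 residues. These are sums over the libraries, without a test.

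Among J segments, TRAJ43 stood out by the size of its difference. It made up 11.5% ± 4.3 of the short UMIs and 0.480% ± 0.083 of the longer ones, 23.9-fold more, and was higher in 12 of 12 libraries (exact p = 0.000488). The difference of 10.98 percentage points was 5.67 with each clonotype counted once and 2.77 with 11 or fewer residues. TRAV4D-4 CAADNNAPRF TRAJ43 alone held 247 of the short UMIs. Of all 1404 in-frame UMIs with TRAJ43, 497 (35.4%) had a short loop. The next segment by this measure was TRAJ33, with 7.15% of 3468 UMIs, and TRAJ21 followed with 6.49% of 8644.

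TRAJ31 was the segment used most, with 19.3% ± 4.2 of short UMIs against 8.78% ± 1.07 of longer ones. TRAJ21 made up 12.4% ± 2.5 against 4.43% ± 0.63, TRAJ27 made up 8.96% ± 2.00 against 5.21% ± 0.54, and TRAJ33 made up 5.70% ± 2.47 against 1.68% ± 0.31. These 4 were higher among short loops in 12 of 12 libraries (exact p = 0.000488 each). TRAJ26 was higher in 11 of 12 (8.30% ± 3.24 against 3.44% ± 0.26, exact p = 0.000977) and TRAJ34 in 10 of 12 (5.90% ± 3.33 against 2.87% ± 0.34, exact p = 0.00928).

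TRAJ23 was the named segment that missed the threshold, with 7.63% ± 2.92 against 6.37% ± 0.75 (exact p = 0.124). Of the 24 segments at 1% or more of in-frame UMIs, 83.3% differed between short and longer loops. The rule is tied in part to this usage, since J segments differ in the length of their germline end: it is 26 bases in TRAJ21, TRAJ31, TRAJ33 and TRAJ43, 27 in TRAJ34, 28 in TRAJ27, and 29 in TRAJ23 and TRAJ26. TRAJ13 also has 26 bases and held 1.52% of the short UMIs. TRAJ25 and TRAJ47, of 26 bases too, gave no short UMI, where only in-frame rows were counted. By position in the locus, the middle segments TRAJ39 to TRAJ21 made up 76.6% ± 5.3 of the short UMIs and 52.4% ± 3.0 of the longer ones, and TRAJ20 to TRAJ2, nearest the constant region, 9.43% ± 2.36 and 40.1% ± 3.0.

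**Figure D3:**
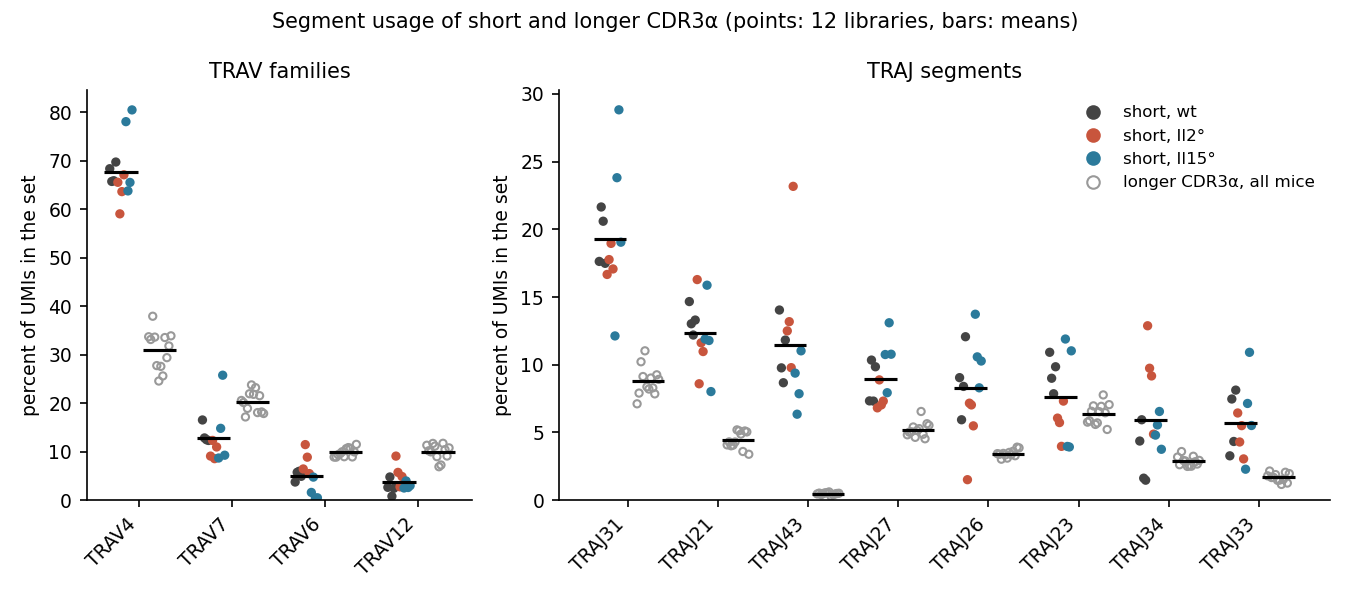
Percent of short UMIs (filled points, coloured by genotype) and of longer in-frame UMIs (open points) that used each named TRAV family and TRAJ segment, 12 libraries each, with bars at the means. TRAV4 makes up 67.7% of short and 31.0% of longer UMIs, and TRAJ43 11.5% and 0.480%.

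With all UMIs counted, 3 of the comparisons of a named segment between genotypes had groups that did not overlap. Il2° against wt had no such TRAV family among 4, and 27.3% of families did so in the whole in-frame repertoire. With low copies left out there were 3, against a background of 25%. These were TRAV4 (59.5% ± 2.9 of short UMIs in Il2° and 68.6% ± 4.9 in wt), TRAV6 (9.01% ± 2.42 and 5.11% ± 1.68) and TRAV12 (6.34% ± 3.81 and 0.989% ± 0.688), each with an exact p of 0.0286 and an adjusted p of 0.0686. With loops of 11 residues added there were 2, TRAV4 and TRAV6. Il15° against wt had none, with a background of 9.09%, and none with low copies left out, with a background of 8.33%. TRAV6 made up 1.83% ± 2.03 of the short UMIs in Il15° and 8.06% ± 2.67 in Il2°, without overlap (exact p = 0.0286, adjusted p = 0.171, background 27.3%). The 2 groups were not separated in TRAV6 when each clonotype was counted once. With 9 or fewer residues TRAV6 could not be compared, since all its short UMIs were at 10 residues, and TRAV4 separated the groups there. With low copies left out TRAV4 and TRAV6 separated Il15° from Il2°, at 71.6% ± 9.0 and 1.78% ± 2.15 in Il15° and 59.5% ± 2.9 and 9.01% ± 2.42 in Il2° (exact p = 0.0286 and adjusted p = 0.0686 each, background 8.33%).

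Of the 8 J segments, TRAJ23 made up 5.77% ± 1.38 of short UMIs in Il2° and 9.41% ± 1.30 in wt, without overlap (exact p = 0.0286, adjusted p = 0.274, background 12.5%), and overlapped with 9 or fewer residues. TRAJ26 made up 10.7% ± 2.2 in Il15° and 5.30% ± 2.64 in Il2°, without overlap (exact p = 0.0286, adjusted p = 0.274, background 4.17%), and overlapped with 9 or fewer residues, with 11 or fewer and with each clonotype counted once. None of the 8 separated Il15° from wt, where the background was 4.17%. With the adjustment over segments and comparisons no difference passed.

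The share of short UMIs, lower in Il2° on average but not past the threshold, was set beside the use of TRAV4 in the whole repertoire. The split was chosen after the values were seen and was run with all UMIs counted. With low copies left out, Il2° and wt overlapped in the share of short UMIs. Whether the use of TRAV4 underlies the difference was not tested. TRAV4 made up 34.6, 33.9, 38.6 and 34.5% of in-frame UMIs in wt, 28.5, 25.2, 28.4 and 26.5% in Il2°, and 34.7, 30.4, 32.5 and 34.9% in Il15°. All Il2° values lay below those of both other genotypes. Of the TRAV4 UMIs, 4.63% ± 0.46 were short in wt, 5.03% ± 0.47 in Il2° and 5.35% ± 0.70 in Il15° (exact p = 0.486 for Il2° against wt and 0.114 for Il15° against wt). Outside TRAV4, 1.22% ± 0.09, 1.06% ± 0.07 and 1.04% ± 0.36 were short (exact p = 0.0571 and 0.486). As a share of all in-frame UMIs, short TRAV4 clonotypes held 1.37% ± 0.15 in Il2° and 1.63% ± 0.12 in wt, a difference of -0.267 percentage points (exact p = 0.0571). Short clonotypes of other families held 0.771% ± 0.051 and 0.788% ± 0.038, a difference of -0.0175 (exact p = 0.686).

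Matched to the germline segments, which was possible for 99.4% of short UMIs, the short loops held fewer bases from both segments and fewer unmatched bases. As means over 12 libraries, weighted by UMIs, they had 9.10 ± 0.30 V bases, 2.02 ± 0.17 unmatched bases and 18.1 ± 0.4 J bases. Longer loops had 10.5 ± 0.05, 2.95 ± 0.04 and 26.1 ± 0.05. The J segments of the short loops had germline ends of 27.4 ± 0.3 bases against 28.9 ± 0.06, and lost 9.37 ± 0.54 of them against 2.88 ± 0.06. No unmatched base was present in 29.5% ± 4.1 of short UMIs and 14.2% ± 0.7 of longer ones. Since these parts add up to the length, the differences follow from the rule to some degree and were not tested.

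The fourth residue, where V and J meet in many short loops, was aspartate or glutamate, the acidic residues, in 40.4% ± 8.6 of the UMIs of loops of 8 to 10 residues and 14.9% ± 2.7 of those of longer loops (n = 12 libraries). Loops of 7 or fewer residues were left out of the residue percentages. By genotype the loops of 8 to 10 residues had 42.5% ± 3.0 in wt, 37.4% ± 5.1 in Il2° and 41.4% ± 14.8 in Il15°. Serine at that place made up 10.3% ± 4.2 of the UMIs of loops of 8 to 10 residues and 31.0% ± 1.7 of longer ones. The germline ends of TRAV4D-3, TRAV4N-3 and TRAV4D-4 code for glutamate at the fourth residue, and those of TRAV7-2 and TRAV12D-2 for serine. TRAV4 made up 67.7% of short and 31.0% of longer UMIs. No value was taken within a V family, so how far the fourth residue follows V usage was not tested. Between the first 3 and the last 4 residues, asparagine made up 26.6% of the residues of loops of 8 to 10 residues, weighted by UMIs, and 16.3% of those of longer loops. A cysteine inside the loop was found in 6 short clonotypes (0.812%) and in 0.664% of longer ones.

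Short clonotypes had fewer UMIs on average than longer ones in every library. A short clonotype had on average 3.42 ± 0.90 UMIs and a longer one 4.47 ± 0.94, over the means of 12 libraries. On the log2 scale the difference was -0.41 ± 0.12 (lower in 12 of 12, exact two-sided sign-flip permutation test, p = 0.000488, the smallest it can give). With low copies left out it was -0.23 (exact p = 0.000977). The ratio of short to longer in wt, Il2° and Il15° was 0.769 ± 0.019, 0.693 ± 0.056 and 0.802 ± 0.056, and no genotype comparison passed (exact p of 0.114 for Il2° against wt, 0.486 for Il15° against wt and 0.0571 for Il15° against Il2°). With the D and N copies of a V segment merged, such as TRAV4D-3 and TRAV4N-3, Il2° against wt and Il15° against Il2° passed after adjustment (exact p = 0.0286 each). With at least 2 UMIs the log2 ratio differed by -0.053 in Il2° against wt, where it was -0.15 with all UMIs (exact p = 0.343). In Il15° against Il2° it then differed by 0.175 (exact p = 0.2). Clonotypes with a single UMI made up 34.4% ± 17.4 of the short and 36.8% ± 10.0 of the longer clonotypes of a library, a difference of -2.42 percentage points (lower in 9 of 12, exact sign-flip permutation p = 0.351). By genotype they made up 23.2% ± 10.9 of the short clonotypes of wt, 46.3% ± 16.4 of those of Il2° and 33.6% ± 18.9 of those of Il15°. The Il2° and wt libraries did not overlap in this percentage (exact p = 0.0286, adjusted 0.0857), and with low copies left out it ranged from 18.2 to 65.8% in Il2° and from 6.17 to 19.8% in wt (exact p = 0.0571). In-frame UMIs numbered 13054 on average in Il2° libraries and 19958 in wt, and the percentage was not compared at equal depth. Longer clonotypes with a single UMI also made up more in Il2° than in wt on average, at 43.3% ± 9.2 and 29.9% ± 7.4, and whether short clonotypes differed from longer ones in this was not tested.

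The 10 leading short clonotypes, by mean share over the libraries, held 899 UMIs, 20.04% of the short UMIs. TRAV4 copies supplied 8 of them, TRAV12D-2 and TRAV7-2 the others. TRAV4D-4 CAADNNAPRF TRAJ43 came first, with 31, 22, 27 and 32 UMIs in wt, 23, 16, 12 and 22 in Il2°, and 23, 7, 6 and 26 in Il15°. It was read in 12 of 12 libraries, at 0.147% ± 0.044, 0.164% ± 0.102 and 0.0977% ± 0.0487 of in-frame UMIs in wt, Il2° and Il15°, and the genotypes overlapped.

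TRAV4D-3 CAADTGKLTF TRAJ27 had 14, 17, 7 and 9 UMIs in wt, 2, 15, 10 and 2 in Il2°, and 12, 7, 1 and 22 in Il15°. TRAV12D-2 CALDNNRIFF TRAJ31 had 8, 16, 3 and 5 UMIs in wt, 17, 13, 4 and 7 in Il2°, and 6, 5, 1 and 10 in Il15°. Both were read in 12 of 12 libraries, and the genotypes overlapped in each.

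TRAV7-2 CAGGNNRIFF TRAJ31 had 16, 20, 14 and 7 UMIs in the 4 wt libraries, 2, 0, 0 and 0 in Il2°, and 2, 10, 17 and 6 in Il15°. All wt values lay above all Il2° values, also as shares. The 2 UMIs in Il2° were in replicate 1, the library linked to wt 2 and wt 3, which held 20 and 14. A library with 0 UMIs allows a share of up to 0.0170% in Il2° 2, 0.0206% in Il2° 3 and 0.0411% in Il2° 4, as 3 UMIs of the in-frame total. The wt mean was 0.0711% ± 0.0227.

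The remaining 6 were read in fewer libraries or were split between copies of a V segment. TRAV4N-3 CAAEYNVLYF TRAJ21 had 77 UMIs in 9 libraries, and with TRAV4D-3 merged the same loop had 123 UMIs in 12 libraries. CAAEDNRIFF had 64 UMIs in 9 libraries with TRAV4D-3 and 89 in 11 with the copies merged. TRAV4D-4 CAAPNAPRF TRAJ43, of 9 residues, had 45 UMIs in 11 libraries. Absence of a single copy of TRAV4 from a library therefore does not show that the loop was absent.

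**Figure D4:**
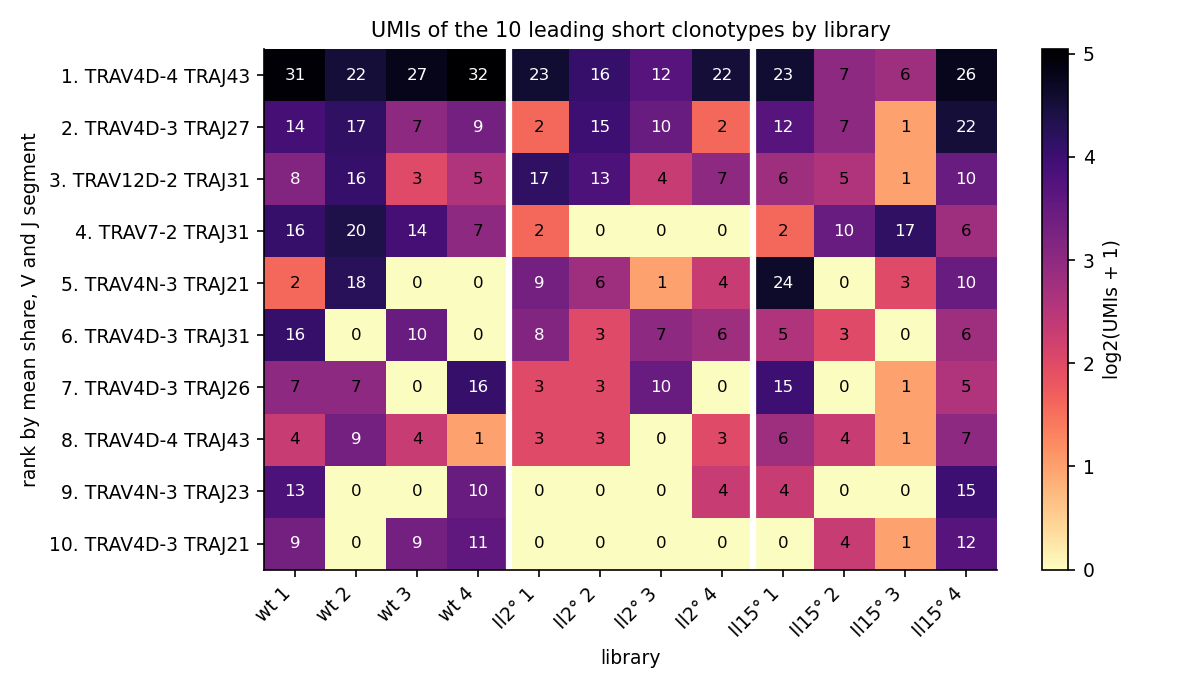
UMIs of the 10 leading short clonotypes, named by V and J segment, in each library; colour gives log2(UMIs + 1) and white gaps separate the genotypes. Row 4, TRAV7-2 with TRAJ31, has 7 to 20 UMIs in wt, 0 to 2 in Il2° and 2 to 17 in Il15°.

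For single clonotypes the quasi-likelihood test of edgeR was run on the UMI counts of all that reached 5 UMIs in 4 or more of 8 libraries, so that most short clonotypes were too rare to be tested. In Il2° against wt 6 of 464 tested clonotypes were short, in Il15° against wt 7 of 478, and in Il15° against Il2° 5 of 362. No short clonotype passed an adjusted p of 0.05 in any comparison by edgeR, DESeq2 or limma. DESeq2, however, gave no adjusted p for 5 of the 6 in Il2° against wt and for 1 of the 5 in Il15° against Il2°. At an unadjusted p under 0.05 edgeR had 1, 0 and 0 short ones. Over all clonotypes tested, edgeR called 0% (0 of 464, with 43 at an unadjusted p under 0.05), 0% (0 of 478, with 20) and 0.276% (1 of 362).

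In Il2° against wt the largest change was that of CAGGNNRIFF, with a log2 fold change of -3.92 (SE 1.09, unadjusted p = 0.00215, edgeR adjusted p = 0.200), which did not pass. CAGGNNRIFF met the minimum of UMIs for this test through its wt libraries alone, so the filter favoured a large fall and a low p. Without Il2° 1 the other Il2° libraries were all at 0 UMIs, and the fitted value of -6.61 then depends on the prior count and is no bound. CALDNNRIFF had 1.08 (SE 0.73, edgeR adjusted p = 0.758) and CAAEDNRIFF 0.70 (SE 1.06). In Il15° against wt the largest were those of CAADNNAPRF at -0.60 (SE 0.55), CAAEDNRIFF at -0.59 (SE 1.28) and TRAV4D-3 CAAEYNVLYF at -0.54 (SE 1.19), each with an edgeR adjusted p of 0.982. In Il15° against Il2° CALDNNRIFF and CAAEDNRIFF both had -1.29 (SE 0.88 and 1.02) and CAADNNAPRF -0.76 (SE 0.61). By shares, 1 of the 6 short clonotypes tested in Il2° against wt did not overlap between the groups, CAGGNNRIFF, against 8.19% of all in-frame clonotypes at the same minimum. There was none in the other comparisons, where the background was 5.58 and 9.09%. Since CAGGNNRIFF met the minimum through its wt libraries alone, the filter also favoured its separation. No conclusion is drawn from its separation, its fold change or its p.

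Some short clonotypes of Il15° mice, chosen after their values were seen, were read with that V segment in no other genotype. TRAV7-2 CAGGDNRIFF TRAJ31 had 1, 0, 18 and 2 UMIs in Il15° 1 to 4. TRAV4D-3 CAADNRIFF TRAJ31, of 9 residues, had 1, 0, 13 and 8, and TRAV4D-3 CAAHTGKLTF TRAJ27 had 6, 0, 14 and 1, while the same loop with TRAV4N-3 had 2 UMIs in Il2° 4. TRAV7-3 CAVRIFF TRAJ31, of 7 residues, had 11 UMIs in Il15° 3 and 1 in Il15° 4, while the same loop with TRAV7D-3 had 3 UMIs in Il2° 1. Each was written by 1 nucleotide sequence and had most of its UMIs in Il15° 3, which is linked to Il15° 4.

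Over the 12 libraries, 418 short clonotypes (56.6%) were read in 1 mouse, 208 in 2 mice and 3 in all 12. Among longer clonotypes 52.5% were read in 1 mouse. With low copies left out, 562 short clonotypes were read in 1 library, 103 in 2 and 0 in all 12, the highest number being 10 libraries. With all libraries, 54.9% ± 17.8 of the short clonotypes of a library were read in another mouse of the same genotype, against 61.9% ± 11.8 of longer ones, a difference of -6.95 percentage points (lower in 10 of 12 libraries, exact sign-flip permutation p = 0.00537). These percentages include the linked pairs. With loops of 11 residues added to the short ones the difference was -0.243 (exact permutation p = 0.744) and no longer passed. It was -21.2 with 9 or fewer residues, -13.3 with at least 2 UMIs and -11.1 with low copies left out (exact sign-flip permutation p = 0.000488 each). With the D and N copies of a V segment merged it was smaller, at -5.13 (exact sign-flip permutation p = 0.0234).

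Taken per pair of libraries, a linked library held 39.4% ± 8.4 of the short clonotypes of its partner, an unlinked library of the same genotype 18.7% ± 6.1, and an unlinked library of another genotype 15.9% ± 2.5 (means over 12 libraries). In unlinked libraries the same genotype and other genotypes differed by 2.78 percentage points (exact sign-flip permutation p = 0.0737). Short clonotypes were read in unlinked libraries less often than longer ones in 12 of 12 libraries, by -8.03 percentage points within the genotype and by -8.98 in other genotypes (exact p = 0.000488 each, the smallest they can give). The values in unlinked libraries, here and by clone size, count the copies of a V segment apart.

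The difference was also measured within classes of clone size. Among clonotypes with 1 UMI, an unlinked library of any genotype held 9.65% of the short and 14.5% of the longer ones (lower in 12 of 12, exact sign-flip permutation p = 0.000488). With 2 to 3 UMIs it held 14.1 and 20.7% (exact p = 0.000488), with 4 to 9 UMIs 25.6 and 34.1% (lower in 11 of 12, exact p = 0.00635), and with 10 or more 66.8 and 77.1% (lower in 8 of 12, exact p = 0.123). With all libraries of the genotype, linked ones included, the order was not the same in every class. There 60.5% of short and 55.3% of longer clonotypes with 1 UMI were seen again (higher in 6 of 12, exact p = 0.297), 45.5 and 54.8% of those with 2 to 3 UMIs (lower in 11 of 12, exact p = 0.000977), 59.59 and 70.01% with 4 to 9 (lower in 12 of 12, exact p = 0.000488), and 95.1 and 95.2% with 10 or more (exact p = 0.975). With all libraries of the genotype, including linked ones, the short clonotypes of Il15° were on average seen again more often than those of Il2° (66.7% ± 18.3 against 39.4% ± 8.2, exact p = 0.0286, adjusted 0.0857), which did not pass. The difference of 27.3 percentage points was 8.78 without Il15° 4 and 8.90 without Il15° 3. Longer clonotypes had the same order, at 70.1% ± 12.7 in Il15° and 51.9% ± 5.6 in Il2°, and whether short ones differed from them in this was not tested. In unlinked libraries the short clonotypes of Il15° and Il2° were seen again in 22.9% ± 7.5 and 14.98% ± 3.24 (exact p = 0.114).

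**Figure D5:**
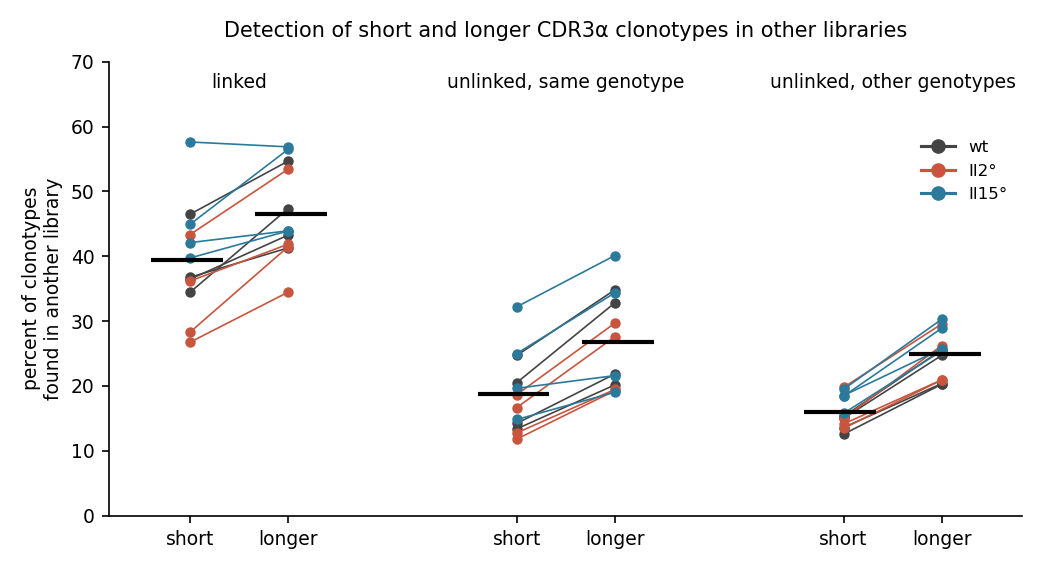
Percent of the short and longer clonotypes of each library that were found in another library, averaged over linked libraries, unlinked libraries of the same genotype and unlinked libraries of other genotypes; lines join the 2 values of a library and bars are means of 12. Short clonotypes average 39.4, 18.7 and 15.9%, and longer ones lie higher in each panel.

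Public clonotypes, those read in all 4 libraries of a genotype, were few among short loops. There were 9 in wt, 6 in Il2° and 6 in Il15°, 2.47, 1.71 and 2.61% of the short clonotypes seen in each genotype, against 5.89, 4.19 and 5.69% of longer ones. The wt libraries held more in-frame UMIs on average, 19958 against 13054 in Il2° and 14625 in Il15°. Downsampled to the smallest in-frame total, the numbers were 4.65, 4.2 and 4.5 on average. With all UMIs, the public short clonotypes held 16.5% ± 2.8, 18.9% ± 6.9 and 14.2% ± 3.1 of the short UMIs, and public longer clonotypes held 45.5% ± 3.2, 41.1% ± 2.8 and 39.8% ± 1.8 of the longer UMIs. The short public lists of wt and Il2° shared 3 clonotypes (33.3% of the wt and 50.0% of the Il2° list), those of wt and Il15° shared 5 (55.6 and 83.3%), and those of Il2° and Il15° shared 3 (50.0% of each). The lists of longer public clonotypes shared 45.3 and 66.2% for wt and Il2°, 38.8 and 59.4% for wt and Il15°, and 49.2 and 51.6% for Il2° and Il15°. With 6 to 9 short clonotypes a list, the shares of the short lists rest on few clonotypes and were not tested.

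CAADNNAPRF, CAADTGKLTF and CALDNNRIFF were public in all 3 genotypes. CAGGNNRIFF and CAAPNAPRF were public in wt and Il15°. TRAV4N-3 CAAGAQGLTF TRAJ26 was read in the 4 wt libraries and in no other, with 14 UMIs, though the same loop with TRAV4D-3 had 12 UMIs in libraries of all 3 genotypes. TRAV4N-3 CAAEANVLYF TRAJ21 was read in the 4 wt libraries and 1 Il15° library, with 17 UMIs. With low copies in linked libraries left out, 2 short clonotypes stayed public in wt, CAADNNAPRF and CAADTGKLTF, and none in Il2° or Il15°.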

How the data were processed

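TCRα cDNA of sorted Treg was sequenced with UMIs. The authors filtered reads by quality and built UMI consensus sequences with pRESTO, assembled clones with MiXCR and processed the tables with VDJtools. The submitters' processing notes name mm10. In the deposited tables the count is the number of UMIs of a clonotype, not normalized, and the deposited fraction divides it by the library's sum. All values here come from the counts. The deposited positions of the V end and J start went past the CDR3 in part of the rows, so that bases were instead matched to the germline ends of GENCODE M21, unlike the original plan.

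The 31 rows of 10 or fewer residues with a stop or frame shift (68 UMIs) were left out. Genotypes were compared with exact two-sided Mann-Whitney tests, and short with longer clonotypes with exact sign-flip permutation tests over the 12 libraries. Single clonotypes were compared with edgeR 4.0.16 (R 4.3.3) after TMM normalization, with DESeq2 1.42.0 and limma 3.58.1 as alternatives, and the exact tests and the edgeR fit were tested on simulated data. Benjamini-Hochberg adjustment and a threshold of 0.05 were used. Python 3.11.15, scipy 1.17.1 and matplotlib 3.10.9 served for the rest. Replicates are separate mice.

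Families and segments named are those with 5% or more of short UMIs in the mean of a genotype; for clonotypes, the 10 leading by mean share over the libraries are named and, per comparison, the 3 with the largest absolute log2 fold change. The short clonotypes, lists and tests were chosen with earlier results of these data known. Linked libraries, a threshold of 100 shared sequences and the fits without low copies were chosen after seeing the data.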

Additional observations from a re-analysis of the deposited data

Results flagged for a closer look

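Dixon's test for a library far from the others of its genotype was run on 83 groups of 4 libraries and marked 6, where chance marks about 1 in 20. The share of short clonotypes with 1 UMI was 7.06% in wt 3, against 27.3 to 31.2% in the other wt libraries, and 70.7% in Il2° 4, the library with the fewest UMIs, against 34.7 to 40.3% in the other Il2° libraries. TRAV7 made up 16.5% of the short UMIs in wt 1, against 12.3 to 12.8%. TRAV7-2 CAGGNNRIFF TRAJ31 made up 0.0157% of in-frame UMIs in Il2° 1 and was at 0 UMIs in the other Il2° libraries. TRAV4N-3 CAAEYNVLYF TRAJ21 made up 0.0786% in wt 2, against 0 to 0.00806% in the other wt libraries. TRAV4N-3 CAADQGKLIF TRAJ23 made up 0.0548% in Il2° 4 and was at 0 UMIs in the other Il2° libraries.

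Outside the in-frame repertoire, 68 UMIs belonged to rows of 10 or fewer residues with a stop or frame shift. They entered no comparison.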

How the results depend on the processing

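TRAV4 and TRAJ43 stayed higher, and the clone size lower, among short clonotypes under every alternative run, but the sizes moved. The TRAJ43 difference of 10.98 percentage points was 2.77 with 11 or fewer residues and 5.67 with each clonotype counted once. The log2 clone size difference of -0.41 was -0.10 with 11 or fewer residues, -0.25 with clonotypes taken by nucleotides and -0.23 with low copies left out. The TRAV4 difference lay between 24.7 and 37.5 percentage points. Other lengths moved the share of UMIs in Il15° against wt to -0.380 (11 or fewer residues) and in Il2° against wt to 0.0355 (9 or fewer). In Il15° against Il2° this share was 0.0217 with 11 or fewer, 0.0731 with 9 or fewer and 0.525 with at least 2 UMIs. With at least 2 UMIs it was -0.497 in Il2° against wt. The share of clonotypes in Il2° against wt became 0.550 with 11 or fewer, 0.103 with 9 or fewer and 0.0379 with low copies left out. In Il15° against wt it became -0.871 and 0.0710 with 11 and 9 residues, and in Il15° against Il2° -1.42 with 11 or fewer, the values at 11 passing the threshold after adjustment in both (exact p = 0.0286 each). The latter became 0.0119 with loops from C to F or W alone, 0.378 with at least 2 UMIs and 0.127 after downsampling. The detection difference of short and longer clonotypes was -21.2 with 9 or fewer residues, -13.3 with at least 2 UMIs, -11.1 with low copies left out and -5.13 with V copies merged. It was -0.243 with 11 or fewer residues (exact sign-flip permutation p = 0.744), and there Il2° differed from wt by -13.8 and Il15° from Il2° by 21.4, both past the threshold after adjustment (exact p = 0.0286 each). With at least 2 UMIs Il15° differed from wt by -5.00 in detection. With V copies merged the log2 clone size ratio differed by -0.18 for Il2° against wt and 0.27 for Il15° against Il2°, both past it after adjustment (exact p = 0.0286 each). For Il15° against Il2° it was 0.20 with 11 or fewer residues and 0.32 with 9 or fewer, both with an exact p of 0.0286 and neither past the threshold after adjustment. The causes were not tested.

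Public short clonotypes in wt, Il2° and Il15° numbered 27, 21 and 31 in at least 3 of 4 libraries and 2, 0 and 0 with low copies left out. In the same order there were 5, 4 and 3 with at least 2 UMIs, 15, 9 and 9 with V copies merged, and 4.65, 4.2 and 4.5 on average after downsampling. TRAV families without overlap numbered 3 for Il2° against wt and 2 for Il15° against Il2° with low copies left out, 2 and 2 with 11 or fewer residues, 1 and 0 with each clonotype counted once, and 1 for Il15° against wt with 9 or fewer. With each clonotype counted once, TRAJ segments numbered 2 for Il15° against wt and 0 for Il15° against Il2°. In Il15° against Il2° the 1 TRAJ segment was TRAJ23 with 11 or fewer residues and TRAJ34 with 9 or fewer, in place of TRAJ26, and in Il2° against wt it was TRAJ34 with 9 or fewer, in place of TRAJ23. Over all clonotypes, DESeq2 called 8, 5 and 3 in Il2° against wt, Il15° against wt and Il15° against Il2°. limma called 3 in Il15° against wt and 0 in Il15° against Il2°. The filter of at least 2 UMIs gave 1 in Il2° against wt, and 0 was called in Il15° against Il2° under both other filters, by library size alone and with low copies left out. With the filter of 1 UMI the log2 fold change in Il15° against wt was 0.13 for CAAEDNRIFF, 0.36 for TRAV4D-3 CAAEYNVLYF and 0.20 for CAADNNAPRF, which in Il15° against Il2° had 0.018, and 0.85 with low copies left out. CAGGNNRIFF in Il2° against wt was not tested with low copies left out.

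Same-numbered libraries deviated together with correlations of -0.200 to 0.144 in Il2° against wt, -0.0364 to 0.00759 in Il15° against wt and -0.0395 to 0.0475 in Il15° against Il2°. These gave no sign of a pairing by number, but 4 pairs a comparison cannot exclude one. With the replicate block, TRAV families with all 4 pairs in 1 direction numbered 4, 1 and 3 and TRAJ segments 4, 1 and 3 in the 3 comparisons in the order above, of 4 families and 8 segments. In the whole in-frame repertoire 54.5, 9.09 and 54.5% of families and 20.8, 25 and 29.2% of segments did so. The block left 0 clonotypes called in Il15° against Il2°, gave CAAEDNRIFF 0.38 in Il15° against wt, and gave the share of UMIs in Il2° against wt p = 0.125, the smallest p an exact test over 4 pairs allows.

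Leaving out 1 library at a time moved the share of UMIs between -0.332 and -0.231 for Il2° against wt and between -0.0933 and 0.132 for Il15° against wt and between 0.192, without Il15° 2, and 0.417 for Il15° against Il2°, with 0.0571 the smallest exact permutation p for 4 against 3. The share of clonotypes lay between -0.177 and 0.0563 for Il2° against wt, -0.181 and 0.0180 for Il15° against wt and -0.136 and 0.0972 for Il15° against Il2°. Detection lay between -36.1 and -0.288, between -10.5 and 27.03 and between 8.78 and 44.1 in the same order. Short clonotypes in all 3 remaining libraries numbered 12 to 15 in wt, 8 to 13 in Il2° and 9 to 16 in Il15°. TRAV families without overlap numbered 0 to 2, 0 to 1 and 1 to 2, TRAJ segments 1 to 3, 0 to 2 and 1 to 2, and clonotypes called by edgeR 0 to 1, 0 to 0 and 0 to 1. The log2 clone size ratio lay between -0.20 and -0.12, between 0.027 and 0.10 and between 0.18 and 0.26. None of the short clonotypes named was called. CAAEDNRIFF in Il15° against wt ranged from -1.01 to 0.071, the latter without wt 1, in Il2° against wt from 0.18 to 1.24 and in Il15° against Il2° from -1.60 to -0.76. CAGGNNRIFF in Il2° against wt ranged from -6.61, without Il2° 1, to -3.47 and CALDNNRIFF from 0.70 to 1.60. TRAV4D-3 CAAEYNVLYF in Il15° against wt ranged from -1.65 to -0.14, and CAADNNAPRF from -0.89 to -0.37 there and from -0.97 to -0.22 in Il15° against Il2°.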
